A study of Mus musculus with 4 samples.

Results

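The 36 genes described here serve protein folding in the endoplasmic reticulum (ER) and the unfolded protein and ATF4 stress responses. They were listed by gene symbol for their known roles, with earlier results of these data known, out of 54532 genes in the tables, and all 36 were found and passed the filter on low counts. Expression was measured by RNA sequencing in PMN-MDSC, cells of the neutrophil lineage able to suppress T cells (polymorphonuclear myeloid-derived suppressor cells), purified from spleens of newborn C57BL/6 mice. In 2 libraries the cells came from the NECA condition, NECA being an adenosine derivative that acts on adenosine receptors, with treatment over 5 days. The 2 libraries they were compared with came from cells given the same time with DMSO, a solvent, in place of NECA. No allele or other agent is named in the labels, and the dose of NECA is not given in the sources used here. Separate animals or cultures behind the 2 libraries of each condition are not stated in the labels, so the p-values cover the spread among these libraries alone, and that spread may be technical.

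Proteins destined for secretion or for membranes fold in the ER with the help of the chaperone BiP (encoded by Hspa5) and of enzymes that form disulfide bonds. When unfolded proteins accumulate, the sensors IRE1 (Ern1), PERK (Eif2ak3) and ATF6 raise chaperones and the machinery that removes misfolded proteins. IRE1 acts by splicing Xbp1 mRNA, and PERK by phosphorylating the translation factor eIF2, which lowers protein synthesis but favours translation of ATF4. Other eIF2 kinases lead to ATF4 as well, in the integrated stress response to lack of amino acids, haem or viral RNA. In myeloid-derived suppressor cells of tumour-bearing mice, PERK and CHOP are known to support the suppression of T cells. Counts per gene show neither the splicing of Xbp1 nor the translation of Atf4.

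The response works through short promoter elements, which are shown for 5 members because they hold the elements by which members are grouped further on, or, for Ppp1r15a, because its value was the lowest. Each window runs from 250 bases before to 50 bases after the RefSeq start site (GRCm38.p6), 5′ to 3′ on the strand of the gene. Capitals mark the letters of the ER stress element ERSE (CCAAT and CCACG with 9 bases of any kind between them), of ERSE-II (ATTGG and CCACG with 1 base between them), of the ATF4 and C/EBP element (TGATGNAA) and of the cAMP response element (TGACGTCA), on either strand. The window of Hspa5 holds 1 ERSE, that of Hsp90b1 holds 2, that of Herpud1 an ERSE-II and the ATF4 element, that of Asns the ATF4 element and that of Ppp1r15a the cAMP element.
Hspa5, chr2:34771840-34772139, plus strand: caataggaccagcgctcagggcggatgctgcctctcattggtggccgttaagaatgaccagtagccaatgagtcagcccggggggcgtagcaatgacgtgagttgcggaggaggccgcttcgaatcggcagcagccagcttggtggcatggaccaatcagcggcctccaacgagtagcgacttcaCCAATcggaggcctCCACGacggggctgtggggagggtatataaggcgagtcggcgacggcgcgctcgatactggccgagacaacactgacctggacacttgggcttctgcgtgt
Hsp90b1, chr10:86705395-86705694, minus strand: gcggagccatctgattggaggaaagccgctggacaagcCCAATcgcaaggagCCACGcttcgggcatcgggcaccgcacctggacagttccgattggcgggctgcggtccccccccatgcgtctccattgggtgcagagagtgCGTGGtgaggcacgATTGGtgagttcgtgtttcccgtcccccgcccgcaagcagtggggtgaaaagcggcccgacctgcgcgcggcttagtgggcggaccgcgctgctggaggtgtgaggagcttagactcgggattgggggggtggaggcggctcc
Herpud1, chr8:94386179-94386478, plus strand: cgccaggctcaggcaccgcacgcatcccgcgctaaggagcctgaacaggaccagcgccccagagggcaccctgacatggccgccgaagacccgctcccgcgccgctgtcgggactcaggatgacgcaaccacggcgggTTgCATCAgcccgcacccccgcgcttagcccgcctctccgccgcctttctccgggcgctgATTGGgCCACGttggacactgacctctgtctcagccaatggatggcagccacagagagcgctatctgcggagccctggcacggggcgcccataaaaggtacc
Asns, chr6:7693160-7693459, minus strand: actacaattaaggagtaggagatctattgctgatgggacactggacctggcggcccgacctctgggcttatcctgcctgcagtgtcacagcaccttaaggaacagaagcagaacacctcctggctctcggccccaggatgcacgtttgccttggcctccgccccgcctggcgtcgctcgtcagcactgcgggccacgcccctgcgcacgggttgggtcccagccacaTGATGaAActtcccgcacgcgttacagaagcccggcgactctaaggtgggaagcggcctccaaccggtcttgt
Ppp1r15a, chr7:45526219-45526518, minus strand: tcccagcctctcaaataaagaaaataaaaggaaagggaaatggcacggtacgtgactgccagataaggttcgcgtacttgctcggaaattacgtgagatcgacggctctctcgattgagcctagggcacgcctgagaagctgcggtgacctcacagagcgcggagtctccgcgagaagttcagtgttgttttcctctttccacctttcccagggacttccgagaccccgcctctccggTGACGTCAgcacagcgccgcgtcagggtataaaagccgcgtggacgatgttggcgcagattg

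Library totals were 18712625 and 15864120 counts for NECA and 18583918 and 18492030 counts for DMSO. Most neutrophil markers were abundant in every library (Ly6g had 402 and 423 CPM with NECA and 371 and 383 CPM with DMSO). Here CPM are counts relative to the library size scaled by TMM. Of 15 neutrophil markers 2 were called higher and 0 lower (median log2 fold change 0.14), with 12 values above 0 and 3 below. The 3 below were those of Elane, Mpo and Prtn3, which were scarce. Mpo had 6.15 and 3.49 CPM with NECA and 6.79 and 15.4 CPM with DMSO (-1.19, adjusted p = 0.121 by edgeR). The libraries differed in markers of other cells. The 10 B cell markers summed to 79.8 and 14.0 CPM in NECA replicates 1 and 2 and to 148 and 156 CPM with DMSO, and haemoglobin took 0.0299% and 0.00148% of counts with NECA and 0.113% and 0.0449% with DMSO. Xist had 25.6 and 36.9 CPM with NECA and 204 and 64.1 CPM with DMSO, and the sex of the pups is not given in the labels. Values without 1 of these libraries are given beside some of the results. Members whose direction turned without 1 library are listed in the last paragraph. In bulk samples, fewer cells of a type and less RNA per cell cannot be told apart.

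None of the 36 members passed edgeR's quasi-likelihood test of NECA against DMSO at an adjusted p (Benjamini-Hochberg over 13083 genes) under 0.05, where 1.33% of all genes did (0.352% higher and 0.978% lower). The smallest adjusted p among members was 0.0937. At an unadjusted p under 0.05 there were 10 members (27.8%, against 15.7% of all genes), of which 4 were higher (all genes 6.81%) and 6 lower (all genes 8.88%). DESeq2, the other tool run, called 1 member higher, Edem1, and 0 lower, where it called 1.36% of all genes higher. Without the filter on low counts, 2 members passed as higher (Xbp1 and Edem1) and 2 as lower (Pdia4 and Ppp1r15a), where 1.28% of all genes were higher and 2.64% lower. The median log2 fold change was 0.0092 over the members and -0.0065 over all genes tested. The fold change lay within 1.2-fold in either direction for 30 members. The 95% interval of the fold change lay within 1.5-fold for 31 of the 36 members and within 2-fold for 33. The members together took 0.260% and 0.256% of all counts with NECA and 0.272% and 0.265% with DMSO, without the TMM scaling. With it, they summed to 2674 and 2624 CPM with NECA and 2638 and 2604 CPM with DMSO. These sums overlapped between the groups, so the order of the groups depended on the scaling.

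**Figure D1:**
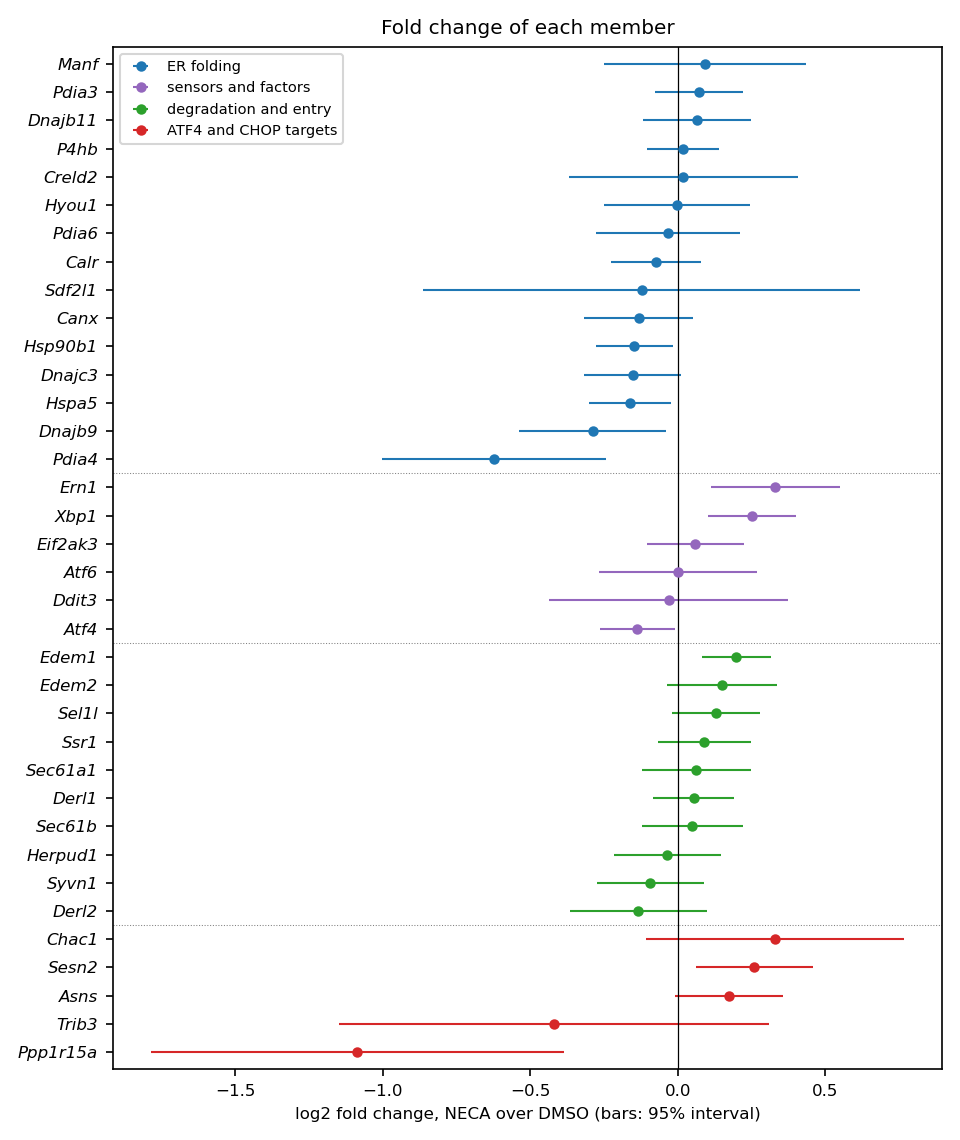
Log2 fold change of NECA over DMSO (x axis) for each of the 36 members, by role, from edgeR, with points for the fitted values from 2 libraries a group and bars for their 95% intervals. Most members lie close to 0, with Ppp1r15a (-1.09) and Pdia4 (-0.62) lowest and Ern1 and Chac1 (both 0.33) highest.

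Both NECA libraries lay above both DMSO libraries for 12 members (33.3%, against 22.4% of all genes tested), below them for 8 (22.2%, against 24.3%), and the groups overlapped for 16 (not overlapping for 46.7% of all genes). Of the 32 members between 10 and 400 CPM, 11 lay above and 6 below, against 27.6% and 17.8% of all genes at that level. With CPM on total counts, 7 members lay above and 14 below, against 11.8% and 35.4% of all genes, so these counts move with the scaling. With the deposited FPKM they were 12 and 8, as with TMM. By TMM-scaled CPM, the members above both DMSO libraries came mostly from ER-associated degradation and protein entry (6 of 10) and from the ATF4 and CHOP targets (3 of 5). All genes tested lay above at 22.4%. The members below were 5 of 15 folding genes, 2 of 5 ATF4 and CHOP targets and 1 of 6 sensors and factors, against 24.3% of all genes tested.

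**Figure D2:**
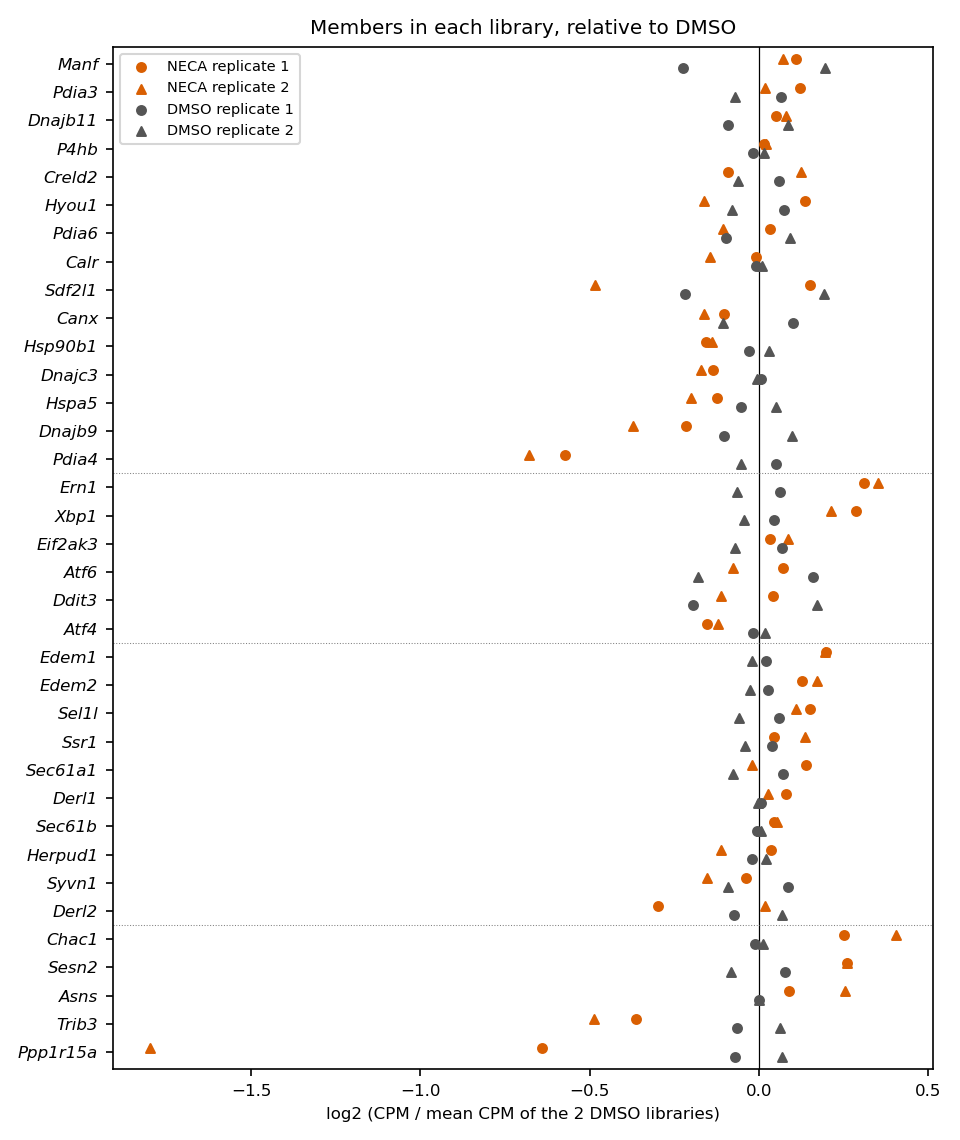
Log2 of each member's CPM over the mean CPM of the 2 DMSO libraries (x axis), with 1 point for each of the 4 libraries (orange NECA, grey DMSO, circles replicate 1, triangles replicate 2). The NECA points of Xbp1, Ern1 and Edem1 lie to the right of both DMSO points and those of Pdia4, Hspa5 and Hsp90b1 to the left, and NECA replicate 2 of Ppp1r15a lies farthest left.

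Among the 15 folding genes, 0 were called, 5 stood above 0 and 10 below, with a median log2 fold change of -0.07 (1 above 0 and 14 below with library size alone as the scale, median -0.15). Without NECA replicate 2 the median was -0.0081, with 7 above 0 and 8 below. Hspa5 (chromosome 2, 34771970 to 34777547, GRCm38), the main ER chaperone and a brake on the sensors, had 175 and 166 CPM with NECA and 184 and 198 CPM with DMSO. Both NECA libraries were lower than both DMSO libraries, and the difference was small (log2 fold change -0.16, SE 0.06, 95% interval -0.30 to -0.02, adjusted p = 0.24). Hsp90b1, the ER member of the HSP90 family, which folds integrins and Toll-like receptors, had 159 and 161 CPM with NECA and 174 and 181 CPM with DMSO. Its groups did not overlap either (-0.15, SE 0.06, adjusted p = 0.251), and its exons overlap those of 3 other annotated genes, so its counts are uncertain. Pdia4, a protein disulfide isomerase, showed the largest difference of the folding genes, with 8.40 and 7.82 CPM with NECA and 13.0 and 12.1 CPM with DMSO. Its 4 libraries fell into separate groups (0.649-fold, log2 fold change -0.62, SE 0.17), and its adjusted p was 0.102.

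Of the Hsp40 co-chaperones, Dnajb9 and Dnajc3 lay below DMSO and Dnajb11 did not. Dnajb9, which binds BiP and restrains IRE1 in hamster cells, had 26.9 and 24.1 CPM with NECA and 29.0 and 33.4 CPM with DMSO (log2 fold change -0.29, adjusted p = 0.242), and an annotated copy matches 156 of its bases. Dnajc3, a BiP partner first known as an inhibitor of eIF2 kinases, had 56.1 and 54.8 CPM with NECA and 61.9 and 61.5 CPM with DMSO (-0.15, adjusted p = 0.352). The groups of both genes did not overlap, whereas those of Dnajb11 did, with 56.7 and 57.8 CPM with NECA and 51.4 and 58.1 CPM with DMSO (0.06, adjusted p = 0.785).

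The lectin chaperones and most disulfide isomerases had values near 0. Calr, the lumenal lectin chaperone calreticulin, had 105 and 95.7 CPM with NECA and 105 and 106 CPM with DMSO (log2 fold change -0.07, adjusted p = 0.689). Canx, its membrane-bound relative calnexin, had 65.5 and 62.9 CPM with NECA and 75.5 and 65.4 CPM with DMSO (-0.13, adjusted p = 0.5). P4hb, the founding protein disulfide isomerase, was among the steadiest members, at 216 and 217 CPM with NECA and 212 and 216 CPM with DMSO. Its log2 fold change was 0.02 with a 95% interval of -0.10 to 0.14, and it counts among the members above both DMSO libraries by less than the digits given. Pdia3, which works with both lectins and in loading of MHC class I, stood at 0.07 and Pdia6 at -0.03, and both overlapped. Hyou1, a nucleotide exchange factor for BiP (-0.0042), and the inducible ER proteins Sdf2l1 (-0.12), Creld2 (0.02) and Manf (0.09) overlapped as well. Counts of Sdf2l1 were low, at 64 and 35 with NECA and 52 and 68 with DMSO, and its 95% interval of -0.86 to 0.62 was the widest of the folding genes.

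The 6 sensors and transcription factors had a median log2 fold change of 0.03, with 0 called (-0.04 with library size alone as the scale). Xbp1 and Ern1 lay above both DMSO libraries in both NECA libraries without passing the test. Xbp1 (chromosome 11, 5520659 to 5525893) had 118 and 112 CPM with NECA and 99.9 and 94.0 CPM with DMSO. The difference between the groups exceeded the spread within them (log2 fold change 0.25, SE 0.07, 95% interval 0.10 to 0.40), with adjusted p = 0.0945. Ern1, which encodes IRE1 itself, had 34.4 and 35.4 CPM with NECA and 29.0 and 26.5 CPM with DMSO (0.33, SE 0.10, 95% interval 0.11 to 0.55, adjusted p = 0.126). Without any one library, the values ran from 0.21 to 0.30 for Xbp1 and from 0.27 to 0.40 for Ern1, and none of these passed (lowest adjusted p = 0.0568 and 0.165).

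Atf6 and Eif2ak3 overlapped between the groups. Atf6, a membrane-bound factor freed by proteolysis, had 33.3 and 30.1 CPM with NECA and 35.4 and 28.0 CPM with DMSO (log2 fold change 0.00034, 95% interval -0.27 to 0.27). Eif2ak3, which encodes PERK, had 81.0 and 83.9 CPM with NECA and 82.9 and 75.3 CPM with DMSO (log2 fold change 0.06, adjusted p = 0.779), and an annotated gene on the opposite strand overlaps its exons. Atf4, the most abundant member per length, had 172 and 176 CPM with NECA and 189 and 193 CPM with DMSO. Its groups did not overlap, and its log2 fold change was -0.14 (SE 0.06, 95% interval -0.26 to -0.01, adjusted p = 0.275). Ddit3, which encodes CHOP, the factor of prolonged ER stress, had 11.2 and 10.1 CPM with NECA and 9.51 and 12.3 CPM with DMSO. Both NECA values lay between the DMSO values (-0.03, 95% interval -0.44 to 0.37), and its exons overlap other annotated genes, which makes its counts uncertain.

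The 10 genes of ER-associated degradation and of protein entry into the ER had a median log2 fold change of 0.06, with 7 above 0, 3 below and 0 called (4 above 0 and 6 below with library size alone as the scale, median -0.01). Edem1 (chromosome 6, 108828641 to 108859356), a lectin-like protein that marks misfolded glycoproteins for removal and a target of spliced Xbp1, had the smallest p of all members. It had 307 and 306 CPM with NECA and 271 and 263 CPM with DMSO, so the gap between the groups was several times the spread within either. Its log2 fold change was 0.20 (SE 0.05, 95% interval 0.08 to 0.32), with adjusted p = 0.0937 by edgeR and 0.0383 by DESeq2. Its relative Edem2 had 43.6 and 45.0 CPM with NECA and 40.7 and 39.1 CPM with DMSO (0.15, adjusted p = 0.434). Sel1l, the scaffold of the degradation ligase, had 122 and 119 CPM with NECA and 114 and 105 CPM with DMSO (0.13, adjusted p = 0.394). Syvn1, the ligase itself, did not share this and overlapped, with 69.6 and 64.2 CPM with NECA and 75.7 and 67.1 CPM with DMSO (-0.09, adjusted p = 0.662).

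Herpud1, a stress-inducible partner of that ligase, had 56.2 and 50.7 CPM with NECA and 54.0 and 55.7 CPM with DMSO (log2 fold change -0.04, adjusted p = 0.897). The derlins, which help misfolded proteins out of the ER, stood at 0.05 for Derl1 and -0.13 for Derl2. Derl2 differed between replicates, with 41.0 and 51.1 CPM with NECA and 47.9 and 52.9 CPM with DMSO, and its exons overlap those of Mis12. The translocon genes lay close to 0. Sec61b had 50.4 and 50.8 CPM with NECA and 48.8 and 49.1 CPM with DMSO (0.05, 95% interval -0.12 to 0.22), and an annotated copy matches 474 of its bases. Sec61a1 stood at 0.06 and Ssr1, of the translocon-associated complex, at 0.09. Exons of Manf, Sec61a1 and Syvn1 also overlap other annotated genes, and Derl1 has a partial annotated copy, so their counts are uncertain. Shorter overlaps with other annotated genes exist for exons of Pdia6 (50 bases), Pdia3 (18 bases), Pdia4 and Dnajb9 (14 bases each) and Ppp1r15a (12 bases).

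The 5 targets of ATF4 and CHOP split into 3 higher and 2 lower, each without overlap between the groups (46.7% of all genes tested) and with 0 called. Ppp1r15a (chromosome 7, 45522916 to 45526268), the inducible subunit of the phosphatase that restores eIF2, had 4.61 and 2.07 CPM with NECA and 6.85 and 7.54 CPM with DMSO, from 84 and 32 counts with NECA and 131 and 142 counts with DMSO. This was the largest difference among the members (log2 fold change -1.09, SE 0.32, 95% interval -1.79 to -0.39), and its adjusted p was 0.118. The value moved with the NECA library used, at -1.795 with replicate 1 left out (adjusted p = 9.23e-05) but -0.64 once replicate 2 was left out instead (adjusted p = 0.394). Each of these fits holds 1 NECA library, which is assumed to vary as the 2 DMSO libraries do, so their p-values say nothing of the spread among NECA libraries. The constitutive subunit of the same phosphatase, Ppp1r15b, had 429 and 436 CPM with NECA and 393 and 400 CPM with DMSO (0.13, adjusted p = 0.243). Trib3, a pseudokinase that inhibits ATF4 and CHOP, had only 41 and 32 counts with NECA and 53 and 57 counts with DMSO (-0.42, 95% interval -1.15 to 0.31, adjusted p = 0.612).

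The higher members of this group were enzymes and regulators of amino acid and redox metabolism. Asns, asparagine synthetase, had 54.3 and 60.9 CPM with NECA and 51.0 CPM in each DMSO library (log2 fold change 0.17, SE 0.08, adjusted p = 0.344). Chac1, which breaks down glutathione, had 7.91 and 8.79 CPM with NECA and 6.58 and 6.69 CPM with DMSO (0.33, SE 0.20, adjusted p = 0.478). Sesn2, a leucine-binding inhibitor of mTORC1, had 44.2 CPM in each NECA library and 39.0 and 34.9 CPM with DMSO (0.26, 95% interval 0.06 to 0.46, adjusted p = 0.185).

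Levels between genes can be compared per length, by the deposited FPKM. The mean FPKM over the 4 libraries ran from 1.19 for Trib3 to 77.3 for Atf4, and the median member (11.9) lay above the median gene tested (3.73). Atf4 had 72.9 and 74.6 FPKM with NECA and 79.8 and 81.6 FPKM with DMSO, and P4hb had 75.7 and 76.1 FPKM with NECA and 73.8 and 75.4 FPKM with DMSO. These neighbours at the top of the order changed places between the groups. Pdia3 followed, with 53.1 and 49.6 FPKM with NECA and 51.0 and 46.3 FPKM with DMSO, and then Edem1 (44.4 FPKM), Hspa5 (42.7 FPKM) and Hsp90b1 (41.8 FPKM) as means over the 4 libraries. Each of these 4 genes overlaps its neighbour in the order over the libraries. Edem1 stood above Hspa5 with NECA (47.6 and 47.6 against 41.5 and 39.3 FPKM), while with DMSO it stood below (41.9 and 40.6 against 43.4 and 46.6 FPKM). The lowest levels of the 36 members were those of Atf6, Sdf2l1 (2.73 FPKM), Ppp1r15a (1.79 FPKM) and Trib3.

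**Figure D3:**
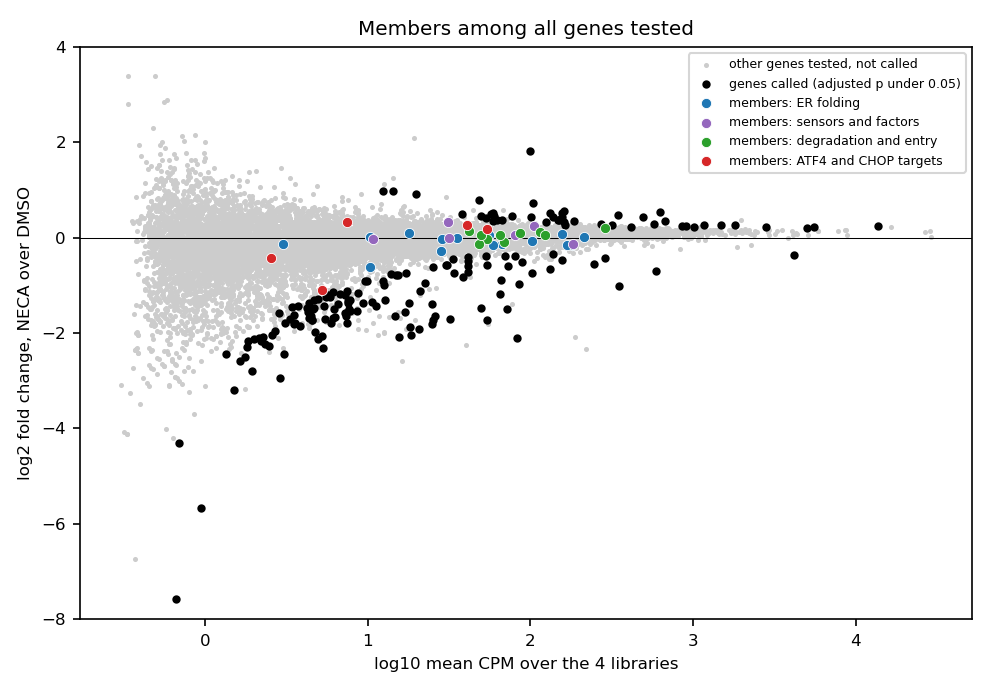
Log2 fold change of NECA over DMSO (y axis) against log10 of the mean CPM over the 4 libraries (x axis) for the 13083 genes tested, with the 174 genes called at adjusted p under 0.05 in black, the 36 members coloured by role and the other genes in grey. Most members lie in the middle and upper range of levels, near 0, and none is among the called genes.

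Of the 36 members, 31 had a promoter window in the RefSeq table. The ERSE letters were found in 8 of them, against 0.119% of all 32851 windows. These were Hspa5, Hsp90b1, Calr, Canx, Pdia6, Dnajc3, Creld2 and Syvn1. The members were listed for known roles that include this response, so their larger share of matches is not a result of these data. The log2 fold changes of these 8 genes were below 0 for 7 and above 0 for 1 (median -0.11), where 51.5% of all tested genes with a window were below 0. All but Syvn1 are among the folding genes already described, so this is not a separate result. The lowest folding genes, Pdia4 (-0.62) and Dnajb9 (-0.29), held no match. With 1 library left out, Pdia6 (up to 0.066) and Syvn1 (up to 0.0017) turned above 0 and Creld2 (down to -0.093) below. Both NECA libraries lay below both DMSO libraries for 3 of the 8 and above for 0, against 24.4% and 22.9% of all tested genes with a window, while the 23 members with a window but no match had a median of 0.06. The 7 other tested genes with the same letters had 4 values above 0 and 3 below (median 0.02). ERSE-II was found in Dnajb11 and Herpud1 (0.0365% of all windows), and the ATF4 element in Herpud1, Trib3, Asns and Chac1 (3.97% of all windows). The cAMP response element was found in Ppp1r15a alone among members (1.79% of all windows), the member with the lowest value, and the 328 other tested genes that hold it had a median of -0.01. The element of spliced XBP1 and ATF6 known as UPRE, searched as TGACGTGG on both strands (its other strand begins with the CCACG of the ERSE), was found in 0 member windows and in 0.676% of all windows. A match in such a window is a match of letters and does not show that a factor binds there.

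Further genes of the same pathways, from lists that had been chosen with earlier results of these data known, were counted in the same way. Of 162 tested genes, 0 were called in either direction by edgeR or by DESeq2, and the median log2 fold change was 0.0023. At an unadjusted p under 0.05, 9 were higher (5.56%, against 6.81% of all genes) and 21 lower (13.0%, against 8.88%), and 12 of those 21 were ATF4 targets. In ER folding (35 tested, median 0.03) the smallest p belonged to Tmx4, a membrane thioredoxin, at 128 and 136 CPM with NECA and 113 and 109 CPM with DMSO (0.25, adjusted p = 0.0918, 0.0248 without the filter on low counts and 0.0217 without NECA replicate 1), and to Sil1, an exchange factor of BiP, at 0.275 and 0.452 CPM with NECA and 1.25 and 1.59 CPM with DMSO (-1.97, adjusted p = 0.129). The other degradation genes (27 tested, median 0.04) were led by Man1b1, a mannosidase (0.21, adjusted p = 0.196), and by Rnf5, a ligase (0.23, adjusted p = 0.204). The other entry genes (35 tested, median 0.00064) were led by Srpr, the receptor of the signal recognition particle (-0.23, adjusted p = 0.17), and by Tram1 (0.16, adjusted p = 0.304). Among sensors and factors (18 tested, median 0.03) the smallest p belonged to Nfya, a subunit of the factor that binds CCAAT in the ERSE (0.20, adjusted p = 0.177), and to Atf6b (0.18, adjusted p = 0.22). Of the genes for eIF2 and its control (14 tested, median -0.08), the adaptor Nck1 stood at 0.26 (adjusted p = 0.111, and 0.0376 without the filter) and the viral RNA sensor kinase Eif2ak2 at -0.27 (adjusted p = 0.191).

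Other known ATF4 targets stood lower as a list, with 23 of 33 tested values below 0, a median of -0.27 and 0 called. Both NECA libraries lay below both DMSO libraries for 18 of the 33 (54.5%, against 24.3% of all genes tested). The smallest p values belonged to Slc38a2 and Cebpb. Slc38a2, an amino acid transporter, stood above 0, at 229 and 222 CPM with NECA and 199 and 189 CPM with DMSO (0.22, adjusted p = 0.0923, and 0.0231 without the filter). Cebpb, a transcription factor of emergency granulopoiesis, had 140 and 130 CPM with NECA and 149 and 185 CPM with DMSO (-0.31, adjusted p = 0.12). Its value was -0.36 without NECA replicate 1 (adjusted p = 9e-04) and -0.45 without DMSO replicate 1 (adjusted p = 0.0463), where the 1 library left in a group is assumed to vary like the other group. The low values were mostly those of genes at low levels: of 13 targets with a mean under 10 CPM, 11 lay below both DMSO libraries, against 33.0% of all genes at that level. Of 20 targets between 10 and 400 CPM, 7 did, against 17.8%, and their median was -0.02.

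**Figure D4:**
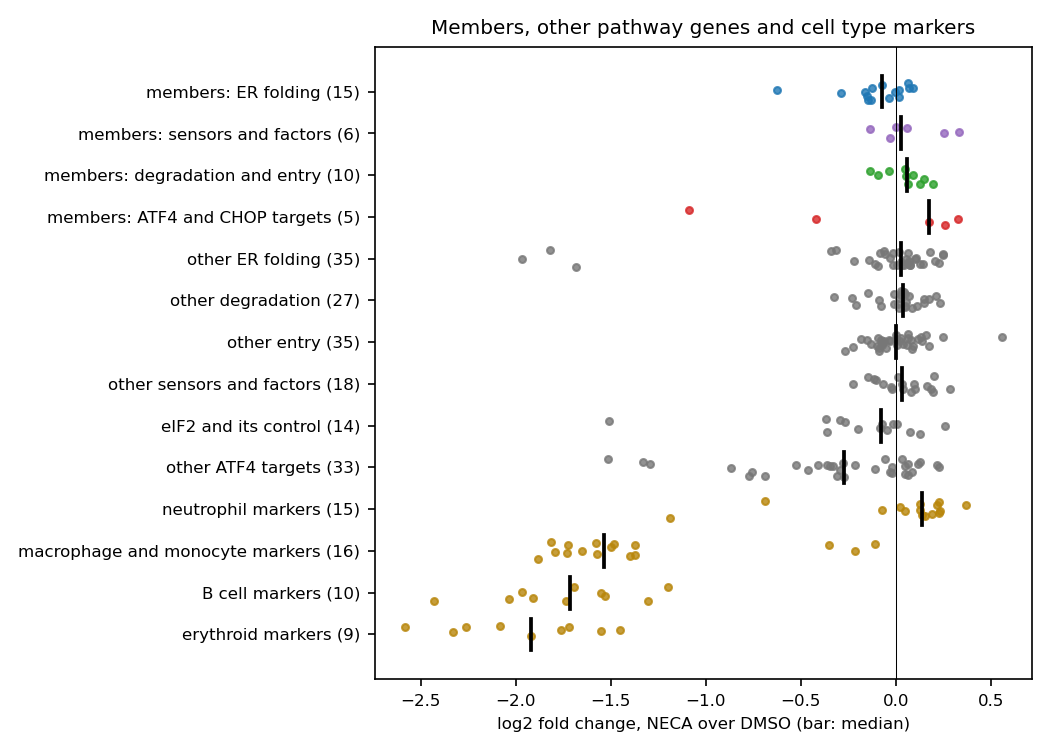
Log2 fold change of NECA over DMSO (x axis) for each tested gene (points) by list, with the number tested in brackets, the median as a black bar, members in colour, other pathway genes in grey and cell type markers in gold. The medians of the members' roles lie between -0.07 and 0.17, that of the other ATF4 targets at -0.27, and those of macrophage, B cell and erythroid markers between -1.54 and -1.92.

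Markers of other cells were lower with NECA in the same libraries. Of 16 macrophage and monocyte markers, 13 were called lower and 0 higher (median log2 fold change -1.54), and their summed level was 843 and 790 CPM with NECA and 1271 and 1190 CPM with DMSO. The 10 B cell markers had a median of -1.71, with 1 called lower (Blnk) and 1 at 0 counts in a library (Ebf1), and the 9 erythroid markers a median of -1.92, with 0 called. The medians were -1.52 for T and NK cell markers (6 tested), -0.50 for dendritic cell markers (4 tested) and -0.83 for basophil, mast cell and eosinophil markers (7 tested). Of 8 plasma cell markers 4 were tested (median -1.64), with a summed level of 8.40 and 0.969 CPM with NECA and 13.0 and 15.7 CPM with DMSO. Pathway genes with the lowest values included Txndc5 (3.51 and 0.259 CPM with NECA and 7.26 and 6.53 CPM with DMSO) and Mzb1 (2.36 and 0.0646 CPM with NECA and 3.19 and 4.94 CPM with DMSO), ER folding genes that antibody-secreting cells express strongly. Mzb1 is itself among the 8 plasma cell markers. Like the B cell markers, Txndc5 and Mzb1 were much lower in NECA replicate 2 than in NECA replicate 1. Ppp1r15a was lower in NECA replicate 2 as well, by a smaller factor (4.61 CPM in replicate 1 and 2.07 CPM in replicate 2). Sil1, which had the lowest value of the further pathway genes (-1.97), was not lower in NECA replicate 2. It had 0.275 CPM in NECA replicate 1 and 0.452 CPM in NECA replicate 2. The part of these other cells in the values of the members was not tested.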

How the data were processed

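From 300000 lysed cells per library, cDNA was made with the SMARTer chemistry, amplified, fragmented enzymatically and read as pairs by NovaSeq, per the labels' protocols. Per the file headers, the deposited tables give whole-number counts and FPKM for each Ensembl gene. The submitters' processing notes name HISAT, StringTie and edgeR (no versions) and the builds GRCm38 and mm10. How reads were counted, shared reads treated and strand used is not given in the sources used here. Between libraries, the ratio of counts to deposited FPKM differed by the same factor for every gene checked (largest relative departure 4.65e-09, 9004 genes with 50 counts or more in each library). Gene lengths did not enter this check.

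The deposited counts went into edgeR 4.0.16 under R 4.3.3: filterByExpr (minimum count 10), TMM, glmQLFit and glmQLFTest with 2 residual degrees of freedom, no replicate block, and Benjamini-Hochberg adjustment over the 13083 genes tested. SE values are |log2 fold change| over the square root of F, and 95% intervals use the t quantile at edgeR's total degrees of freedom. The procedure was tested on simulated data drawn from means and spreads estimated in these same libraries, with planted changes larger than those of most members. That test cannot check the model itself or the detection of smaller changes. Depth was 15864120 to 18712625 counts per library. Replicates were not copies of each other (chi-square per degree of freedom 5.01 for NECA and 6.36 for DMSO). Where a symbol had more than 1 identifier, that with the higher mean count was used, and the other identifier of Ddit3 had 0 counts. Positions, overlaps and copies (BLAST 2.17.0, at least 97% identity over 100 bases) come from GENCODE M21 on GRCm38, and promoters from RefSeq on GRCm38.p6. Alternatives were DESeq2 1.42.0, other scalings, no filter, a replicate block and leaving out each library.

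The members and lists were chosen with earlier results of these data known. All 36 members may be named, with full values for the 6 smallest p, the 4 highest FPKM, the 4 largest changes and 8 central genes (Hspa5, Hsp90b1, Xbp1, Atf4, Ddit3, Trib3, Asns and Chac1). Of each further list the 2 smallest p are named. Ppp1r15b, Txndc5 and Mzb1 were chosen after their values were seen.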

Additional observations from a re-analysis of the deposited data

How the results depend on the processing

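Over all alternatives the members' median log2 fold change stayed near 0. It was -0.063 with library size alone as the scale, which shifted the median of all genes to -0.08 and was the only setting to move it by more than the spread between replicates. With that scale 21 genes were higher and 217 lower, and the values of Pdia3 (-0.0022), P4hb (-0.054), Dnajb11 (-0.0070), Creld2 (-0.054), Atf6 (-0.073), Eif2ak3 (-0.014), Derl1 (-0.018), Sec61b (-0.023) and Sec61a1 (-0.0099) turned negative. DESeq2 called 151 genes higher and 1 member higher (Edem1), and Hyou1 stood at 0.0019. Without a low count filter, 285 genes were higher and 590 lower, with 2 members higher (Xbp1 and Edem1, adjusted p = 0.0272 and 0.0296), 2 members lower (Pdia4 and Ppp1r15a, adjusted p = 0.0435 and 0.00229), 3 other pathway genes higher (Slc38a2, Nck1 and Tmx4) and 3 lower (Mzb1, Txndc5 and Cebpb), and Atf6 at -0.0016. With a replicate block, 123 genes were higher and 298 lower, 0 members in either direction, and 1 other pathway gene was lower (Txndc5). No shared animal or day is stated for the replicate numbers, and deviations of same-numbered libraries correlated at r = 0.0142 across genes. With 2 libraries a group, this correlation cannot exclude a shared animal or day. Whether the numbers pair the samples is therefore not known.

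Without any one library, 8 to 227 genes were higher and 45 to 594 lower, 0 members were higher and 0 to 1 lower (Ppp1r15a without NECA replicate 1), and 0 to 2 other pathway genes were higher (Tmx4 and Srp54b without NECA replicate 1) and 0 to 6 lower. Members whose direction turned ran from -0.16 to 0.19 (Atf6), -0.30 to 0.018 (Derl2), -0.020 to 0.14 (Sec61a1), -0.12 to 0.066 (Pdia6), -0.16 to 0.13 (Hyou1), -0.48 to 0.15 (Sdf2l1), -0.093 to 0.13 (Creld2), -0.20 to 0.17 (Ddit3), -0.11 to 0.035 (Herpud1), -0.015 to 0.16 (Dnajb11), -0.10 to 0.32 (Manf), -0.17 to 0.0017 (Syvn1) and -0.0050 to 0.14 (Eif2ak3). Among the other pathway genes, Srp54b stood at 1.38 without NECA replicate 1 and at -1.40 without NECA replicate 2. It has near-identical annotated copies, so its counts are uncertain. The cause of these turns was not tested. Leaving out a library leaves 1 in its group, which is then assumed to vary like the other group. The lowest counts per library among members were those of Ppp1r15a and Trib3, at 32.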
